A study of Mus musculus with 6 samples.

Results

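The genes of cholesterol and fatty acid synthesis were examined in the hippocampus of mice with reduced p300. They were a list of 31 named genes, and every probe set that the array annotation assigned to exactly 1 of these symbols was taken. All 31 genes were measured, by 75 of the 45037 probe sets tested (18193 gene symbols in all). The p300+/- mice were heterozygous for a deficiency of p300, the lysine acetyltransferase and transcriptional coactivator encoded by Ep300. The controls were their wild-type littermates, and both genotypes were 3-month-old females on a C57BL/6 background, with no drug or training named in the labels. Each genotype was represented by 3 Affymetrix mouse genome arrays, and each array by a pool of RNA from 4 animals, so that a value is that of a pool and not of an animal and a p-value measures the spread between pools. The mutant allele is not described further in the sources used here.

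Cholesterol is built from acetyl-CoA through mevalonate and isoprenoid intermediates to squalene, which is closed into the first sterol, lanosterol, and then trimmed to cholesterol. Fatty acids are built from the same acetyl-CoA by acetyl-CoA carboxylase and fatty acid synthase and are then elongated and desaturated. Both pathways are controlled by the SREBP transcription factors (Srebf1, Srebf2). These are held in the endoplasmic reticulum by Scap and the Insig proteins while sterols are plentiful, and are cleaved and sent to the nucleus when sterols run low. The brain makes nearly all of its own cholesterol, with oligodendrocytes using it for myelin and astrocytes supplying neurons.

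No gene of either pathway had a probe set that passed the test between the genotypes. Of the 75 probe sets, 37 had higher and 38 lower values in p300+/-, with a median log2 fold change of -0.0078, beside 0.0057 over all probe sets tested. The number past an adjusted p of 0.05 was 0 (limma), and it was 0 also at an unadjusted p under 0.05. Over all probe sets 0% passed the adjusted threshold and 1.22% had an unadjusted p under 0.05. The smallest unadjusted p among the members was 0.0642, that of an Acss2 probe set, and the adjusted p was 0.9999 or more after rounding for all of them (limma). For 71 of the 75 probe sets the 95% interval lay within a 2-fold change in either direction, and for 47 within a 1.5-fold change (94.7% and 62.7%, beside 95.5% and 74.2% of all probe sets). The 4 with an interval beyond 2-fold were single probe sets of Stard4, Acaca, Scd2 and Elovl6.

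The values were log2 intensities minus the median of the probe set across its 6 arrays, which leaves differences between arrays and no absolute level. Base 2 was assumed for the logarithm, since no source used here gives it. Where 3 values are given for a genotype they stand in the order of replicates 1 to 3. Values joined by "against" are p300+/- first and wild-type second. Log2 fold changes are p300+/- minus wild-type, given with ± their standard error (SE) in parentheses after the array values or by themselves for probe sets described in less detail. Ep300 itself, read by a single probe set (1434765_at), was at -0.26, -0.22 and -0.50 in p300+/- and 0.22, 0.38 and 0.40 in wild-type pools. Every p300+/- value lay below every wild-type value, and the log2 fold change was -0.66 ± 0.13 (adjusted p = 0.9999, limma). Whether this probe set reads the altered stretch of the gene was not tested. In bulk tissue, fewer cells of a type and less RNA per cell cannot be told apart. Of 10 hippocampal marker genes 9 had a probe set in the brightest of 3 level classes, beside 7593 of all 18193 genes. The classes were recovered from the number format of the values (log2 intensity of 2 to 4, 4 to 8 and 8 to 16). Of the 75 member probe sets 40 fell in the class of 8 to 16, 28 in that of 4 to 8 and 5 in that of 2 to 4, and 2 were not assigned.

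**Figure D1:**
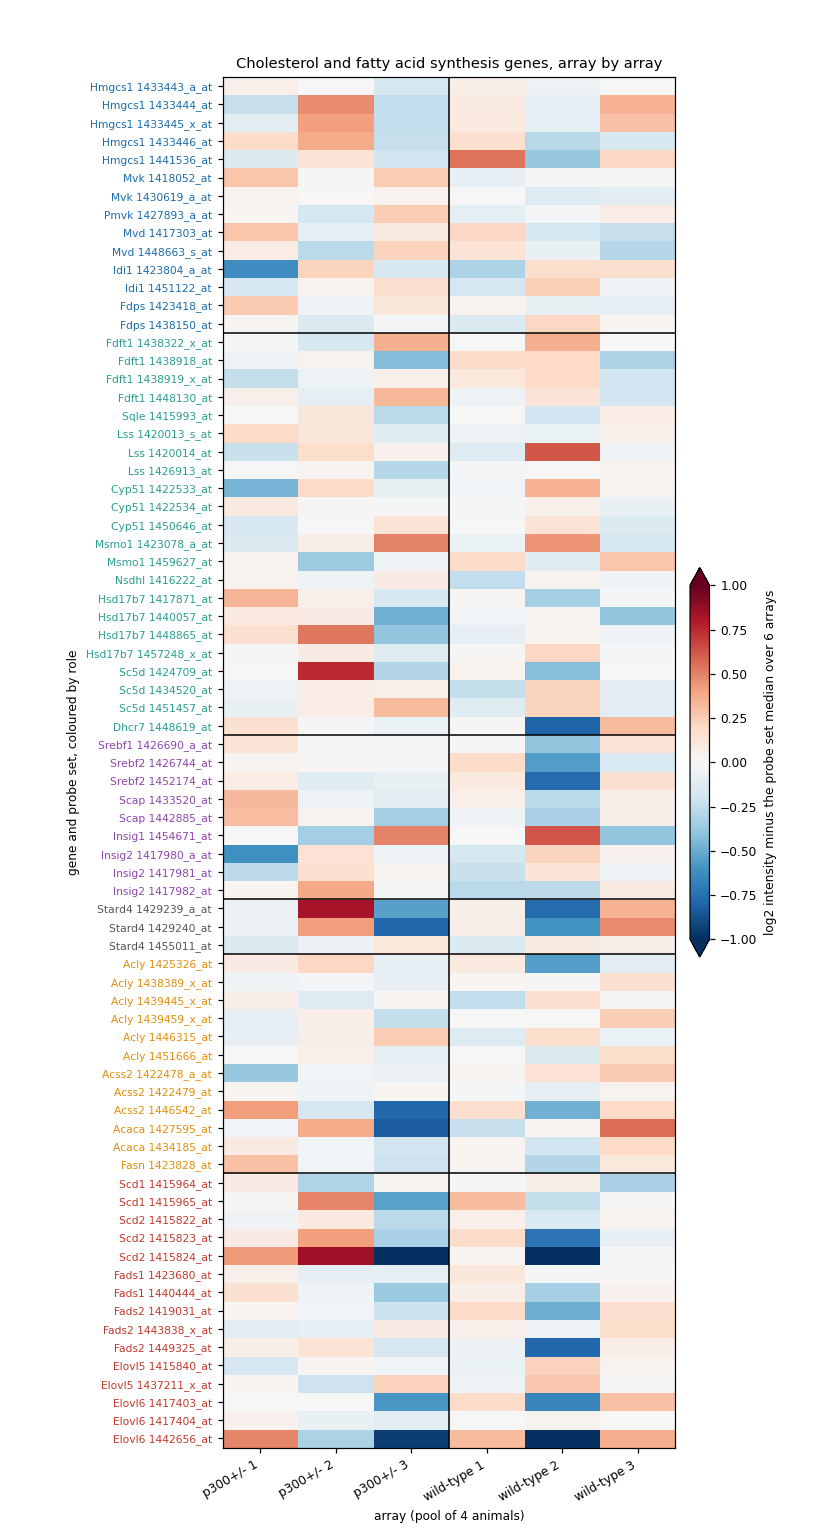
Values of the 75 probe sets (rows, grouped by role and labelled in the colour of the role) on the 6 arrays (columns, 3 p300+/- left of the line and 3 wild-type right of it), as log2 intensity minus the probe set's median, with the colour scale ending at -1 and 1. The blue cells gather in p300+/- 3 and wild-type 2, which lie on opposite sides of the line.

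In 0 of the 75 probe sets was the difference between genotype means larger than the wider of the ranges within a genotype, which was the case for 2.14% of all probe sets. The genotypes did not overlap in 3 of the 75, probe sets of Mvk, Acly and Acss2, beside 5.39% of all probe sets. The arrays p300+/- 3 and wild-type 2 had the lowest quality weights over all probe sets (0.58 and 0.38, with the others between 0.99 and 3.17). They stood out among the members too. Each held the lowest value of 21 member probe sets (28% each), against 17.2% and 18.4% of all probe sets. In 25 of the 75 (33.3%) these arrays held the lowest pair of values, and in 10 (13.3%) the highest pair. Over all probe sets the shares were 15.8% and 21.4%. The low pair was seen in 9 of 15 probe sets of desaturases and elongases and in 2 of the 3 of Stard4. It was in 4 of 12 of fatty acid supply and synthesis and in 2 of 9 of the regulators. Probe sets of the same gene were counted separately. Squalene and sterol enzymes had 5 probe sets with the low pair and 5 with the high pair, of 22. The pattern was thus uneven among the members. The 36 probe sets of the mevalonate and squalene branches had the low pair in 22.2% and the high pair in 16.7%. For the 39 of all other members the shares were 43.6% and 10.3%. Related genes outside the members did not share the excess of low pairs throughout. Other cholesterol synthesis enzymes had the low pair in 1 of 9 probe sets and the high pair in 5. For sterol regulation, uptake and export the shares were 25.7% and 17.1%, and for further fatty acid genes 18.0% and 19.7%.

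Some marker lists stood apart in the same arrays, in either direction, and others did not. The mean of 10 neuronal markers was -0.28 in p300+/- 3 and -0.59 in wild-type 2, and between -0.0081 and 0.14 in the other arrays. Hippocampal identity markers were at -0.28 and -0.23 in these arrays. For 10 choroid plexus markers the mean was -2.36 in wild-type 2 and between -0.14 and 0.27 elsewhere. It was highest in p300+/- 3 (0.27) and wild-type 3 (0.24). Microglial markers were high in p300+/- 3 and wild-type 2 (0.28 and 0.11, at most -0.017 elsewhere), and blood markers were at 0.61 and 0.17 there, but also at 0.16 in p300+/- 2. Among the marker lists, only the list means of oligodendrocyte markers did not overlap between the genotypes. They ran from -0.0079 to 0.14 in p300+/- and from -0.11 to -0.050 in wild-type pools, with p300+/- 3 highest and wild-type 2 lowest. Full separation of 3 against 3 arrays cannot reach an exact permutation p below 0.1. Of 11 measured oligodendrocyte genes 9 were higher in p300+/-, beside 57.6% of all 18193 genes, and 10 had a probe set in the brightest class. Of 28 probe sets 5 had an unadjusted p under 0.05 (limma), beside 1.22% of all probe sets and at most 1 probe set in each other marker list. Of 9 astrocyte markers 7 were lower in p300+/-, with list means of -0.078 to 0.033 and of -0.036 to 0.055. Their means in p300+/- 3 and wild-type 2 (0.033 and -0.027) lay within the range of the other arrays. Endothelial and meningeal markers were highest in p300+/- 2 (0.17, beside 0.091 in p300+/- 3) and lowest in wild-type 2 (-0.15). No list had a probe set past the adjusted threshold (limma), and the part of these markers in the values of the lipid synthesis genes was not tested.

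**Figure D2:**
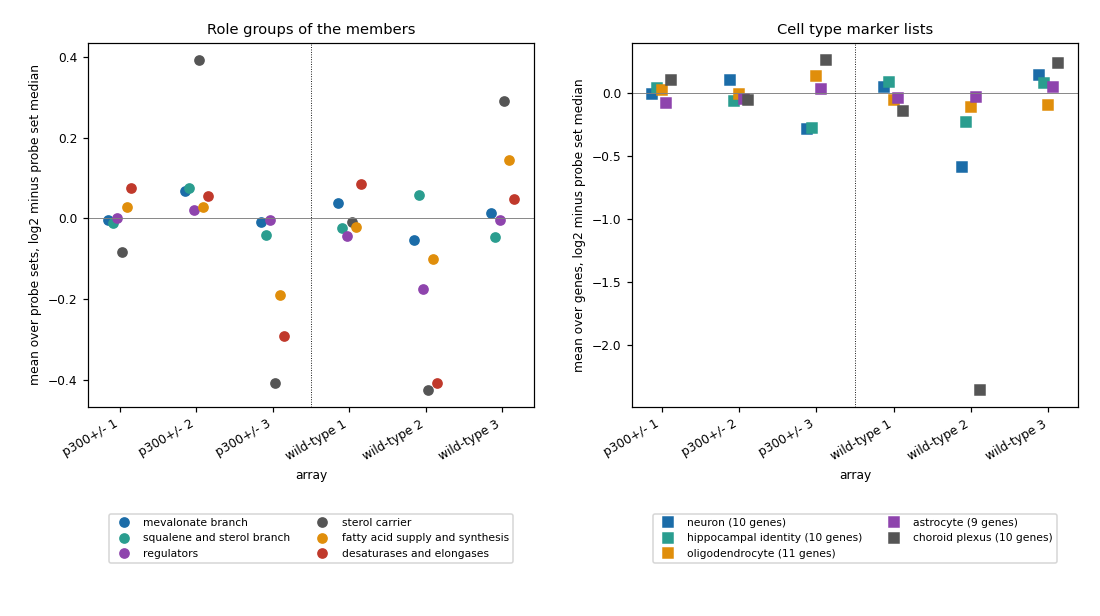
Left, the mean of each role group over its probe sets on each array; right, the mean of 5 cell type marker lists over their genes, both as log2 intensity minus the probe set median. Desaturases and elongases were lowest in p300+/- 3 and wild-type 2 (-0.29 and -0.41), where neuronal markers were also lowest.

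Promoter windows are shown for 4 members that sit on different sides of this array pattern. Insig1 and the Msmo1 probe set 1423078_a_at were highest in p300+/- 3 and wild-type 2, Fasn was lowest there, and Hmgcs1 had 3 of its 5 probe sets lowest there. Each window runs from 250 bases before to 50 bases after an annotated start site (RefSeq, GRCm38.p6), and the deposited values themselves name no build. The capitals mark the core of the sterol regulatory element, TCACCCCAC, the NF-Y box CCAAT, the E-box CACGTG and the GC box GGGCGG, on either strand.
Insig1, chr5:28071162-28071461 on the plus strand: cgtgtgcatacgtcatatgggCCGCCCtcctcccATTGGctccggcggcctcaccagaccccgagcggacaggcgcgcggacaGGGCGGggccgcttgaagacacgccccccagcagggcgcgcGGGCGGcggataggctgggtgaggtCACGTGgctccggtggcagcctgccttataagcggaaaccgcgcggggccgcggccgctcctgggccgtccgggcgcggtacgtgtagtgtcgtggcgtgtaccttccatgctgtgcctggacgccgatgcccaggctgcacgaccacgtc
Msmo1, chr8:64733529-64733828 on the minus strand: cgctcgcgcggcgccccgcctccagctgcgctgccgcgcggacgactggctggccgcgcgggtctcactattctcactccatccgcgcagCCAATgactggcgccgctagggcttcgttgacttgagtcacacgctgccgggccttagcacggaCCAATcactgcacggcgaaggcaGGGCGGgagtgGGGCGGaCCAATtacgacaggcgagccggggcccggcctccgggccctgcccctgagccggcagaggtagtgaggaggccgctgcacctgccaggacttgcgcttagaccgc
Fasn, chr11:120824498-120824797 on the minus strand: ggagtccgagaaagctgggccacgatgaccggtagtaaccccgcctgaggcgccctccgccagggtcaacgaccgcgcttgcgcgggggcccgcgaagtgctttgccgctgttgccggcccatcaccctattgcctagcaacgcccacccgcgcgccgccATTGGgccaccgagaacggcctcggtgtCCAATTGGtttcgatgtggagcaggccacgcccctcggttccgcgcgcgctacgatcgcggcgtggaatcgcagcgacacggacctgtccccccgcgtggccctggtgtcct
Hmgcs1, chr13:119690101-119690400 on the plus strand: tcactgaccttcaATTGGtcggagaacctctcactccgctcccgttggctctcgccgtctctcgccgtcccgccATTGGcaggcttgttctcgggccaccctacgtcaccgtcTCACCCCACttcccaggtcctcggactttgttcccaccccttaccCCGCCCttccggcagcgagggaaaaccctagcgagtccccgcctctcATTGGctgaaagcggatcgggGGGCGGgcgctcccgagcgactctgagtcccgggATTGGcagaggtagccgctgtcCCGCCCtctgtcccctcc
Windows were found for 24 of the 31 members, 32 in all. The NF-Y box was in 21 of them and the GC box in 23, against 37.4% and 35.7% of all 32851 windows. The E-box was in 7 windows of 6 genes (7.15% of all windows), since overlapping windows of Scap hold the same E-box. An exact match to the sterol regulatory core was found only in that of Hmgcs1 (0.551% of all windows), 137 bases before the start site. Other forms of this element were not searched for, so a window without capitals for it may still hold one. Insig1 has an E-box 101 bases before its start site, Msmo1 has 3 NF-Y boxes, and in Fasn a forward and a reverse NF-Y box overlap. These matches describe letters and not occupied sites.

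The mevalonate branch makes the isoprenoid units. Its 6 genes were read by 14 probe sets, of which 8 had higher and 6 lower values in p300+/- (median log2 fold change 0.023), and none passed. Mvk, which phosphorylates mevalonate, was the only member whose values did not overlap between genotypes when its probe sets were averaged (1 of 31, beside 4.72% of all 18193 genes). Its probe set 1418052_at was at 0.28, 0.012 and 0.25 in p300+/- and -0.083, -0.012 and -0.016 in wild-type pools (0.22 ± 0.12, 95% interval -0.063 to 0.50). The 3 p300+/- pools lay above the wild-type ones, but p300+/- 2 only by a small margin. The other Mvk probe set gave 0.10 ± 0.11. Fdps, which joins the units to farnesyl diphosphate, was at 0.26, -0.031 and 0.12 in p300+/- and 0.031, -0.072 and -0.080 in wild-type pools (0.16 ± 0.12). Here p300+/- 2 fell among the wild-type values, and the dimmer probe set of the gene had the opposite sign (-0.075).

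Hmgcs1, the synthase that makes HMG-CoA and a classical SREBP target, had the window with the exact match to the sterol regulatory core shown above. Its 5 probe sets did not give 1 answer. The first, 1433443_a_at, was at 0.052, 0.0040 and -0.16 in p300+/- and 0.056, -0.050 and -0.0040 in wild-type pools (-0.035 ± 0.11). The probe set 1433446_at was at 0.18, 0.37 and -0.23 against 0.16, -0.27 and -0.16 (0.20 ± 0.19), with p300+/- 3 and wild-type 2 low in each genotype. The remaining 3 lay at -0.12, -0.079 and -0.19. Among the other enzymes Pmvk was at 0.045 ± 0.14 and the Mvd probe sets at 0.16 ± 0.16 and 0.082 ± 0.17. Idi1, the isomerase of the isoprenoid unit, gave -0.20 ± 0.24 and 0.0016, the former with a low value of -0.62 in p300+/- 1.

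The enzymes from squalene synthase to cholesterol were close to even. Of 22 probe sets of 9 genes 12 had higher and 10 lower values (median log2 fold change 0.037), and none passed or was without overlap. Sqle, the squalene epoxidase and a control point of the pathway, was at 0.0037, 0.11 and -0.27 in p300+/- and -0.0037, -0.19 and 0.073 in wild-type pools. The genotypes overlapped fully, with the lowest value of each in p300+/- 3 and wild-type 2, and the log2 fold change was -0.0088 ± 0.14 (95% interval -0.34 to 0.33). Cyp51, the lanosterol demethylase, gave -0.23 ± 0.19, 0.046 and -0.0078. The first of these was at -0.46, 0.19 and -0.077 in p300+/- and -0.024, 0.34 and 0.024 in wild-type pools, and the low p300+/- 1 and the high wild-type 2 stood at its ends. Without p300+/- 1 it was -0.060 and without wild-type 2 -0.12.

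Msmo1, the sterol methyl oxidase, showed how far probe sets of a gene can part. The probe set 1423078_a_at was at -0.14, 0.065 and 0.49 in p300+/- and -0.065, 0.45 and -0.17 in wild-type pools (0.067 ± 0.22), high in p300+/- 3 and wild-type 2 alike. The probe set 1459627_at was at 0.037, -0.36 and -0.037 against 0.19, -0.12 and 0.27 (-0.24 ± 0.16), low in p300+/- 2 and high in wild-type 1 and 3. Sc5d, the sterol desaturase, had probe sets at either end of the array pattern. Its probe set 1451457_at was high (0.31 in p300+/- 3 and 0.22 in wild-type 2), and 1424709_at was low in the same arrays (-0.30 and -0.42). All 3 Sc5d probe sets had higher values in p300+/-, at 0.28, 0.064 and 0.11.

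Hsd17b7, which reduces the sterol ketone, was at 0.34, 0.050 and -0.16 in p300+/- and 0.011, -0.34 and -0.011 in wild-type pools by its first probe set (0.19 ± 0.17), with its other 3 from -0.087 to 0.12. Dhcr7, the last enzyme of the route and the gene of Smith-Lemli-Opitz syndrome, was at 0.18 ± 0.27. Its value of -0.80 in wild-type 2 was the lowest of the branch, and without that array its difference was -0.14. The 4 probe sets of the squalene synthase gene Fdft1 ran from -0.17 to 0.13, those of the lanosterol synthase gene Lss from -0.15 to 0.084, and Nsdhl, a sterol dehydrogenase, was at 0.11.

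**Figure D3:**
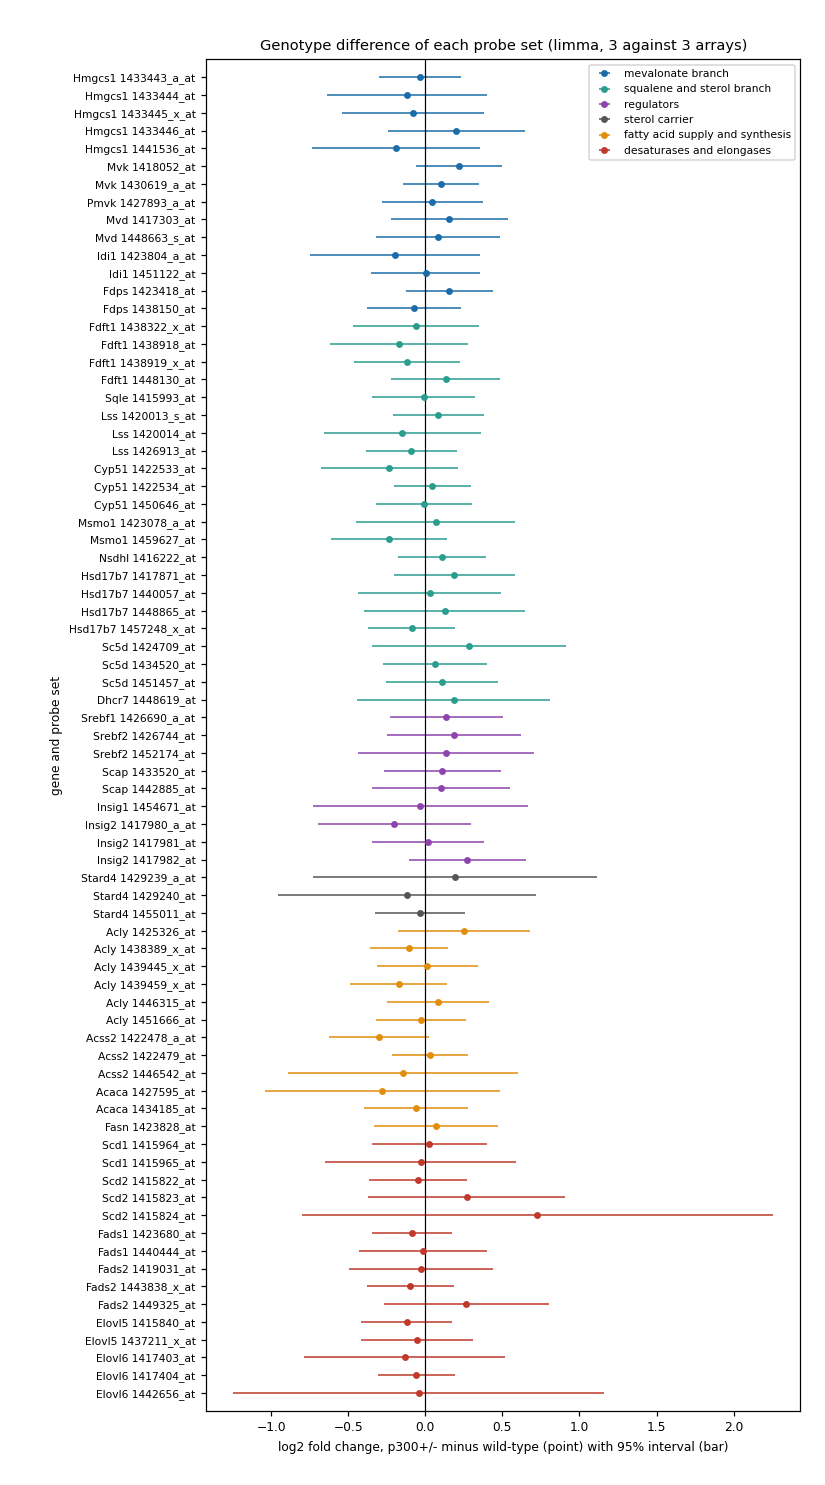
Log2 fold change of each probe set (p300+/- minus wild-type, point) with its 95% interval (bar), ordered and coloured by role, 3 arrays against 3. Every interval includes 0, and the widest is that of the Scd2 probe set 1415824_at (-0.80 to 2.26).

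The regulators had higher values in 7 of 9 probe sets (median log2 fold change 0.11), with none passed and all overlapping. Srebf1, whose products drive mainly fatty acid genes, was at 0.14, -0.021 and 0.016 in p300+/- and -0.016, -0.39 and 0.13 in wild-type pools (0.14 ± 0.16). Srebf2, the factor of cholesterol genes, was at 0.030, 0.012 and -0.012 against 0.18, -0.56 and -0.15 by its first probe set (0.19 ± 0.19), and at 0.072, -0.12 and -0.072 against 0.097, -0.77 and 0.15 by its second (0.13 ± 0.25). In all 3 probe sets wild-type 2 was the lowest array, and the p300+/- pools lay close together. Without wild-type 2 the log2 fold changes were -0.014 for Srebf1 and -0.0062 and -0.17 for Srebf2, so that the higher mean in p300+/- rested on that array. Scap, the escort of SREBP, was at 0.33, -0.052 and -0.10 against 0.052, -0.27 and 0.060 (0.11 ± 0.16), and at 0.10 by its other probe set. Without p300+/- 1 these were -0.026 and -0.053, and without wild-type 2 they were 0.0015 and -0.013.

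The Insig genes encode the sterol-dependent anchors, and Insig1 is itself a target of SREBP. Insig1 was at -0.0062, -0.34 and 0.49 in p300+/- and 0.0062, 0.63 and -0.39 in wild-type pools, with the widest span of the 9 regulator probe sets (1.02). It was high in p300+/- 3 and wild-type 2 and low in p300+/- 2 and wild-type 3, and the log2 fold change was -0.034 ± 0.30. Insig2 differed in sign between its probe sets. The probe set 1417982_at was at 0.018, 0.38 and -0.018 against -0.27, -0.26 and 0.092 (0.27 ± 0.16), where only wild-type 3 exceeded the lower p300+/- values. The probe set 1417980_a_at was at -0.61, 0.15 and -0.046 against -0.17, 0.22 and 0.046 (-0.20 ± 0.21), where p300+/- 1 was far below the rest, and the third gave 0.019.

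Stard4, a carrier that moves cholesterol between membranes and is induced when sterols are low, had some of the widest values among all members. Its probe set 1429239_a_at was at -0.057, 0.82 and -0.55 in p300+/- and 0.057, -0.77 and 0.35 in wild-type pools (0.19 ± 0.39, 95% interval -0.73 to 1.12). The probe set 1429240_at was at -0.055, 0.42 and -0.79 against 0.055, -0.60 and 0.47 (-0.12 ± 0.36). The same pools were high (p300+/- 2 and wild-type 3) and low (p300+/- 3 and wild-type 2) in each, across genotypes. The third probe set, 1455011_at, was narrow, at -0.14, -0.058 and 0.11 against -0.14, 0.089 and 0.058 (-0.034 ± 0.13).

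**Figure D4:**
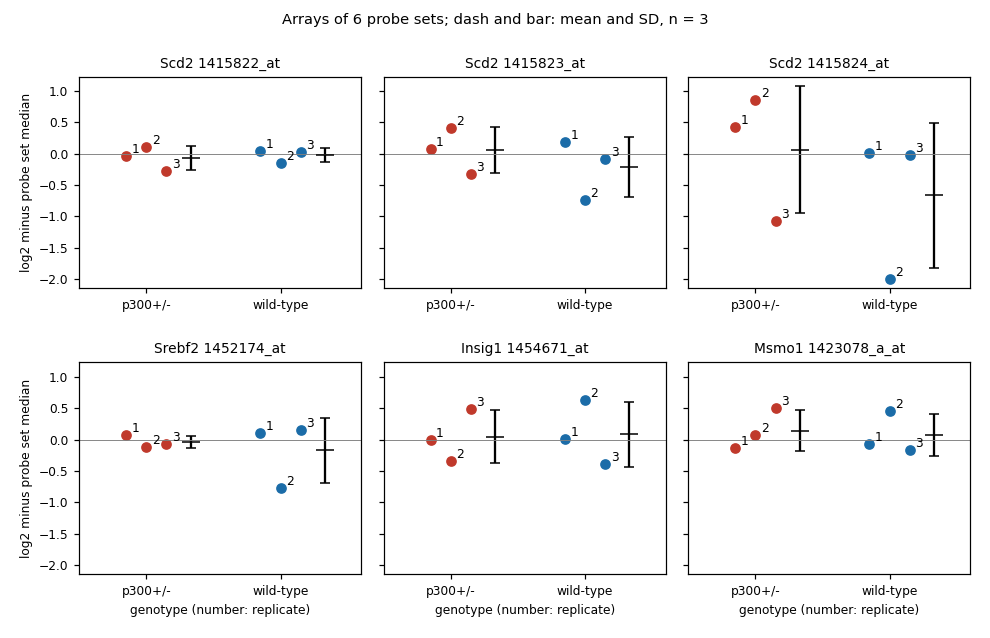
Values of 6 probe sets on each array (points, numbered by replicate; p300+/- red, wild-type blue), as log2 intensity minus the probe set median, with mean and SD (n = 3) as dash and bar. The 3 Scd2 probe sets were low in p300+/- 3 and wild-type 2 to very different extents, Srebf2 was low in wild-type 2, and Insig1 and Msmo1 were high in p300+/- 3 and wild-type 2.

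The genes that supply and join carbon for fatty acids leaned to neither side, with 5 of 12 probe sets higher and 7 lower (median log2 fold change -0.044). Acss2, which makes acetyl-CoA from acetate and is known in neurons to feed histone acetylation, had the smallest p of all members. Its probe set 1422478_a_at was at -0.38, -0.031 and -0.060 in p300+/- and 0.031, 0.14 and 0.26 in wild-type pools. Every p300+/- pool lay below every wild-type pool, and the log2 fold change was -0.30 ± 0.14 (95% interval -0.63 to 0.023, adjusted p = 0.9999, limma). With any single array left out it ran from -0.37 to -0.19. A second probe set in the same level class, 1422479_at, gave 0.029 ± 0.11, and the third gave -0.14 ± 0.32.

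Acly, the citrate lyase that makes cytosolic acetyl-CoA, was read by 6 probe sets, 3 with higher and 3 with lower values. The probe set 1425326_at was at 0.079, 0.21 and -0.079 in p300+/- and 0.10, -0.55 and -0.10 in wild-type pools (0.25 ± 0.18), and without the low wild-type 2 its difference was 0.070. The probe set 1439459_x_at was at -0.097, 0.067 and -0.24 against -0.0055, 0.0055 and 0.25 (-0.17 ± 0.13). A dim Acly probe set, 1438389_x_at, had no overlap between genotypes at -0.10 ± 0.11, the smallest margin being that between -0.0085 in p300+/- 2 and 0.0085 in wild-type 2. Fasn, the fatty acid synthase, was at 0.30, -0.030 and -0.21 against 0.030, -0.29 and 0.11 (0.072 ± 0.17), with low values in p300+/- 3 and wild-type 2. The acetyl-CoA carboxylase gene Acaca gave -0.058 ± 0.14 by its bright and -0.28 ± 0.33 by its dim probe set, the latter with -0.83 in p300+/- 3.

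Among desaturases and elongases 4 of 15 probe sets had higher and 11 lower values in p300+/- (median log2 fold change -0.044), while Scd2 held the largest difference of all members. Scd2 is the main stearoyl-CoA desaturase of the brain. Its probe set 1415824_at was at 0.42, 0.85 and -1.08 in p300+/- and 0.018, -1.99 and -0.018 in wild-type pools. The spread within each genotype exceeded the difference, 0.064 ± 1.01 (SD, n = 3) against -0.66 ± 1.15 (SD, n = 3), and the log2 fold change was 0.73 ± 0.65. It was 0.064 without wild-type 2 and 1.30 without p300+/- 3.

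The other Scd2 probe sets had the same low arrays at a smaller scale. The probe set 1415823_at was at 0.082, 0.41 and -0.32 in p300+/- and 0.19, -0.74 and -0.082 in wild-type pools (0.27 ± 0.27), and without wild-type 2 its difference was 0.0052. The first in file order, 1415822_at, was at -0.034, 0.099 and -0.27 against 0.048, -0.15 and 0.034 (-0.046 ± 0.14). All 3 were in the brightest class and had p300+/- 3 and wild-type 2 as their lowest arrays. Their spans over the 6 arrays were 2.84 for 1415824_at, 1.15 for 1415823_at and 0.37 for 1415822_at. Scd1, the desaturase typical of liver and fat, was near even at 0.027 and -0.031.

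Fads2, the delta-6 desaturase of polyunsaturated fatty acids, was at 0.058, 0.14 and -0.17 in p300+/- and -0.058, -0.79 and 0.070 in wild-type pools by 1449325_at (0.27 ± 0.23). Only wild-type 2 stood apart, and without it the difference was 0.0025. The other Fads2 probe sets gave -0.027 and -0.097, and those of the delta-5 desaturase Fads1 -0.086 and -0.015. Elovl6, which extends palmitate, had its widest values in 1442656_at, at 0.48, -0.31 and -0.94 against 0.31, -1.32 and 0.37, low once more in p300+/- 3 and wild-type 2 and with little difference between genotypes (-0.044 ± 0.51). Its other probe sets were at -0.13 and -0.059, and the 2 of Elovl5, an elongase of polyunsaturated chains, at -0.12 and -0.054. All 5 probe sets of the elongases had lower values in p300+/-, but 3 of them turned positive with some array left out. These reached 0.30 for Elovl6 1442656_at and 0.059 for 1417403_at, both without p300+/- 3, and 0.057 for Elovl5 1437211_x_at without p300+/- 2.

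When each gene was read as the mean of its probe sets, 17 of the 31 members were higher and 14 lower in p300+/- (54.8% higher, beside 57.6% of all 18193 genes). The median log2 fold change was 0.014 for the members and 0.019 for all genes. Of the 24 members with several probe sets, 15 had probe sets of either sign, 5 had only higher values and 4 only lower ones. The members with only higher values were Mvk, Mvd, Sc5d, Srebf2 and Scap, and those with only lower values Acaca, Fads1, Elovl5 and Elovl6.

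Further genes of the pathways gave no call either. Of 105 probe sets of 52 measured genes on 3 lists of related enzymes and regulators, 59 had higher and 46 lower values (median log2 fold change 0.027), 0 passed the adjusted threshold (limma) and 1 had an unadjusted p under 0.05. Among other enzymes of cholesterol and isoprenoid synthesis (6 of 10 listed genes measured, 5 probe sets higher and 4 lower) the sterol isomerase gene Ebp was at 0.14 ± 0.16, and Ggps1, which makes geranylgeranyl diphosphate, ran from -0.16 to 0.16 over 4 probe sets. In the list of sterol regulation, uptake and export (19 of 24 genes, 18 probe sets higher and 17 lower) the ubiquitin ligase gene Rnf139 was at -0.21 ± 0.16 and -0.10. The oxysterol receptor gene Nr1h3 was at 0.15 ± 0.13. In the list of further fatty acid genes (27 of 29 genes, 36 probe sets higher and 25 lower) Hsd17b12, the reductase of the elongation cycle, had the smallest p. It was at 0.015, 0.49 and 0.39 in p300+/- and -0.048, -0.015 and -0.23 in wild-type pools (0.39 ± 0.15, adjusted p = 0.9999, limma), while its other probe set gave 0.038 ± 0.15. Elovl1, an elongase of very long saturated chains, was at 0.24, 0.029 and 0.37 against -0.044, -0.12 and -0.029 (0.28 ± 0.13), its 3 other probe sets running from 0.051 to 0.088.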

How the data were processed

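Total RNA of 6 hippocampal pools (4 animals each) was hybridized to Affymetrix mouse genome arrays. Per the labels' protocols, the authors processed and normalized the data in GeneSpring GX; its version, the summarization, the normalization method and any filters are not stated in them. The deposited log2 values (45101 probe sets) have a median of 0 within 1e-06 over the 6 arrays of each tested probe set, so levels and any filter on them are lost; the centring is read from the values, and base 2 is an assumption. After 64 control probe sets were left out, 45037 were tested. Of these 34945 had 1 gene symbol, 932 several and 9160 none, and 34741 of the first matched RefSeq (GRCm38.p6) by gene identifier. The test was that of limma 3.58.1 for every probe set (R 4.3.3; lmFit and eBayes, 3 against 3 arrays, two-sided, no covariates), with Benjamini-Hochberg adjustment over all of them and a threshold of 0.05. The procedure was tested on simulated data with independent noise, which lack the pattern that p300+/- 3 and wild-type 2 share. The median SE over all probe sets was 0.15, and the number of arrays limits the precision. An exact permutation test of 3 against 3 cannot give a p below 0.1 and was not used. A probe set was given in full if it had 1 of the 3 smallest p in its role group, an unadjusted p under 0.05, or was the first of Srebf1, Srebf2, Insig1, Scap, Sqle, Hmgcs1, Fasn or Scd2; the probe sets of each further list's 2 genes of smallest p were also named. The other members described in array values were chosen after their values were seen. Members, lists and the arrays looked at together were chosen with earlier results of these data known. Listed genes outside the members without a probe set of 1 symbol are not analysed here. Figures were drawn with matplotlib 3.10.9.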

Additional observations from a re-analysis of the deposited data

How the results depend on the processing

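No probe set, member or other, passed under any alternative run: quantile normalization, median centring of arrays, robust moderation, array weights, level class filters, omission of IDs ending in _s_at, _x_at or _a_at, a threshold of 0.1, each array left out in turn, and p300+/- 3 and wild-type 2 left out together (0 calls each, limma). An unadjusted p under 0.05 was reached by 550 of 45037 probe sets in the fit reported (limma). In the alternative runs the number went from 93 of the 12310 tested in the class of 8 to 16 alone to 1632 of 45037 with array weights. The planned moderation with a trend and a filter on level need levels and were not run, and classes took their place. With the replicate number as a replicate block the count was also 0 (604 at an unadjusted p under 0.05), and no call changed. The deviations of same-numbered arrays correlated at 0.61, -0.23 and -0.47, and those of p300+/- 3 and wild-type 2 at 0.65. With 3 arrays per genotype these values cannot decide whether the numbers pair the pools.

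Of the 75 member probe sets 47 changed sign when some array was left out, 24 of them without p300+/- 3. Leaving out both p300+/- 3 and wild-type 2 changed the sign of 15, of which 2 had kept it under every single omission. With 1 array left out the log2 fold change ran from -0.079 to 0.028 for Hmgcs1 1433443_a_at, -0.091 to 0.10 for Sqle, -0.014 to 0.25 for Srebf1, -0.0062 to 0.36 for Srebf2 1426744_at, -0.026 to 0.19 for Scap 1433520_at, -0.27 to 0.24 for Insig1, -0.36 to 0.018 for Insig2 1417980_a_at, -0.18 to 0.50, -0.40 to 0.21 and -0.10 to 0.021 for Stard4 1429239_a_at, 1429240_at and 1455011_at, -0.066 to 0.18 for Fasn and -0.13 to 0.055 for Scd2 1415822_at. Without both p300+/- 3 and wild-type 2, Hmgcs1 1433443_a_at was at 0.0021, Sqle at 0.024 and Insig1 at 0.017. With array weights Srebf2 1426744_at was at -0.033 and Stard4 1455011_at at 0.013. The cause of these sign changes was not tested. The other 13 probe sets given in full kept their sign with any 1 array left out, but all except Mvk 1418052_at (12 of 13) moved by over 1.5 times. Besides the values given in the report, Hmgcs1 1433446_at came to 0.067 and Msmo1 1459627_at to -0.12 and Insig2 1417982_at to 0.15 without p300+/- 2, Hsd17b7 1417871_at to 0.058 and Fdps 1423418_at to 0.084 without p300+/- 1, and Acly 1439459_x_at to -0.090 without wild-type 3.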
